A study of Triticum aestivum with 6 samples.

Results

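The 9 genes described here are the homoeologs of the sucrose transporter SUT1 on wheat chromosomes 4A, 4B and 4D, of the sucrose synthase SUS2 on 2A, 2B and 2D, and of the sucrose synthase SUS1 on 7A, 7B and 7D. They were taken by identifier, with no threshold on their values, from a table of 127196 genes. Earlier results of these data were known when the genes and tests were chosen. The names SUT1, SUS2 and SUS1 come with the list of identifiers. The expression table carries no gene names, and 0 of its identifiers matched the RefSeq gene table of Chinese Spring (assembly IWGSC CS RefSeq v2.1), so the names were not checked against sequence.

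All libraries are from endosperm of the winter wheat cultivar Zhoumai36, grown in the field, in grains taken 25 days after anthesis. After removal of the pericarp, the middle section of the grain was divided by hand into the innermost endosperm (IE), which is its central lobe zones, and the remaining endosperm (RE), which is the other starchy endosperm together with the living aleurone. There were 3 libraries from each region, described in the methods as biological replicates. The study grew plants under low and high nitrogen and built libraries of both regions at each level. The labels of these libraries give the region, the replicate and a letter A that all of them share. The meaning of that letter is not given in the sources used here, so no nitrogen level was assigned.

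Sucrose is the form in which carbon reaches the cereal grain. SUT1 is a proton-coupled sucrose transporter of the plasma membrane that takes sucrose into cells. Sucrose synthase splits sucrose with UDP, reversibly, into fructose and UDP-glucose, which feeds starch and cell wall synthesis in the growing endosperm. Bread wheat is hexaploid, so a gene is usually present as a triad of homoeologs, 1 each in the A, B and D genomes.

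Expression is given as FPKM, the fragments of a gene scaled by its length and by the total of the library. The totals lay between 13959933 and 21766392 fragments on genes, and the 9 genes rested on between 81 and 6829 fragments per library. Over all genes tested, IE replicate 2 lay closer to RE replicates 2 and 3 (root mean square differences of 0.77 and 0.79 on the log2 scale) than to IE replicates 1 and 3 (0.87 and 1.12). IE replicate 1 likewise lay closer to RE replicates 2 and 3 (0.74 and 0.82) than to IE replicates 2 and 3 (0.87 and 0.85). IE replicate 3 lay between 0.85 and 1.16 from every other library. Results are also given without IE replicate 2, though these distances do not single it out. The closing section gives the range of the main values with each library left out. Of the genes that the paper annotates as grain storage proteins, the gliadin TraesCSU01G153800 had 44.7, 31.9 and 50.4 FPKM in the IE libraries in order of replicate and 21.1, 24.4 and 25.5 FPKM in the RE libraries. The globulin TraesCS4D01G171800 had 159.6, 402.5 and 185.7 FPKM in IE and 356.5, 372.0 and 546.6 FPKM in RE, with IE replicate 2 among the RE libraries. The globulin TraesCS7D01G351300 had 1.70, 6.22 and 0.663 FPKM in IE and 6.63, 2.01 and 2.93 FPKM in RE. RNA of storage proteins was thus present in every library. The paper lists the gliadin among genes higher in IE, and both globulins among genes higher in RE, under high nitrogen. These genes were listed there as differing between the regions, so their directions say nothing about storage proteins in general. No aleurone markers were at hand by identifier, so the part of the aleurone in the values was not tested. In such bulk tissue, fewer cells of a type and less RNA per cell cannot be told apart.

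Against the whole table, SUT1 and SUS1 were strongly expressed and SUS2 was not. The test covered 51830 genes whose mean over the 6 libraries reached 0.5 FPKM, and each SUT1 and SUS1 homoeolog had a mean above that of 96.9% or more of them. The SUS2 homoeologs on 2A, 2B and 2D had means above those of 80.8%, 75.3% and 57.3% of these genes. Together the SUT1 homoeologs took between 0.0271% and 0.0574% of the fragments of a library, and the SUS1 homoeologs between 0.0352% and 0.119%. Fold changes below are log2 differences of IE relative to RE on log2(FPKM + 0.1), from limma fitted to all genes tested, and a call needed both an adjusted p of 0.05 or less and a change of 1 or more on the log2 scale in either direction. None of the 9 genes was called, and 0 of the 51830 genes were (0%), with a smallest adjusted p of 0.359. Limma's voom on recovered fragments also called 0 genes, and 5203 genes had an unadjusted p under 0.05 in the fit of FPKM. Across all genes tested, the log2 fold changes had a median of -0.12, or 0.01 after median-ratio scaling, so values of the members are best read against that shift.

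**Figure D1:**
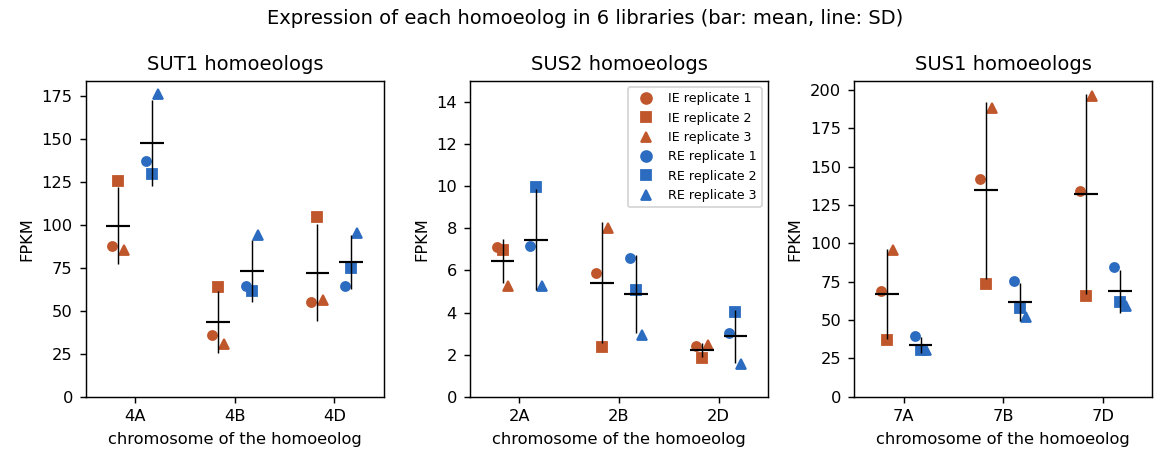
FPKM (vertical axes, starting at 0, with a scale of their own in each panel) of the 9 homoeologs in the 3 IE libraries and the 3 RE libraries. Bars are means and vertical lines are SDs. IE replicate 2 lies near or within the RE libraries for SUS1, at 37.0, 73.8 and 65.9 FPKM for 7A, 7B and 7D.

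The mean of the SUS1 sum was 2.03 times as high in IE as in RE, but the libraries of the regions overlapped through IE replicate 2. The summed FPKM of the triad was 344.6, 176.8 and 480.5 in IE replicates 1, 2 and 3 and 200.2, 150.1 and 142.2 in RE replicates 1, 2 and 3. IE replicates 1 and 3 stood above every RE library, while IE replicate 2 stood between RE replicates 1 and 2. The means were 333.9 ± 152.2 in IE and 164.1 ± 31.5 in RE (SD, n = 3 each), a difference of 0.93 in mean log2 values (p = 0.2 in a two-sided exact permutation test, for which 0.1 is the smallest value with this number of libraries). Without IE replicate 2 the difference was 1.33, with both remaining IE libraries above all RE libraries, and without IE replicate 3 it was 0.61.

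TraesCS7B01G063400, the SUS1 homoeolog on 7B, had 141.7, 73.8 and 188.5 FPKM in the IE libraries in order of replicate, against 75.8, 57.8 and 51.9 FPKM in the RE libraries. IE replicate 2 fell just short of RE replicate 1, and this was the only overlap. The log2 fold change was 1.04 (standard error 0.36, 95% interval 0.21 to 1.87, limma adjusted p = 0.417). It was the only one of the 9 genes past a log2 fold change of 1 with an unadjusted p of at most 0.05, which 1.64% of all genes tested passed as higher in IE and 4.11% as lower in IE. This depended on the scaling. As TPM its log2 fold change was 0.991, short of 1. After median-ratio scaling it was 1.17, and the 7A gene passed as well (1.03, limma unadjusted p = 0.0355).

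TraesCS7D01G159800, on 7D, had 134.2, 65.9 and 196.4 FPKM in IE and 84.6, 62.0 and 59.5 FPKM in RE, in order of the replicates. IE replicate 2 was below RE replicate 1 and above the other RE libraries. Its log2 fold change was 0.82 (standard error 0.39, 95% interval -0.09 to 1.74, limma adjusted p = 0.538). TraesCS7A01G158900, on 7A, was the weakest of the triad, with 68.7, 37.0 and 95.6 FPKM in IE and 39.7, 30.2 and 30.8 FPKM in RE. Here too only IE replicate 2 and RE replicate 1 crossed. The log2 fold change was 0.90 (standard error 0.35, 95% interval 0.09 to 1.71, limma adjusted p = 0.455). Without IE replicate 2, the log2 fold changes of 7A, 7B and 7D were 1.28, 1.42 and 1.26, with limma adjusted p-values of 0.0583, 0.0576 and 0.0664. In that fit the smallest limma adjusted p of all genes tested was 0.0566, and 9232 genes had an unadjusted p under 0.05. Leaving out IE replicate 3 gave 0.60, 0.74 and 0.47 for 7A, 7B and 7D (limma adjusted p-values of 0.742, 0.697 and 0.824). The log2 fold changes of the SUS1 genes stayed above 0 under each of the scalings tried and with each library left out.

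The means of the SUT1 homoeologs were lower in IE than in RE, with a smaller and less even difference than that of SUS1. Their summed FPKM was 178.9, 294.1 and 172.6 in IE replicates 1, 2 and 3 and 265.8, 266.1 and 365.6 in RE replicates 1, 2 and 3. IE replicates 1 and 3 were the lowest libraries of the 6, and IE replicate 2 was exceeded only by RE replicate 3. The means were 215.2 ± 68.4 in IE and 299.2 ± 57.5 in RE (SD, n = 3 each), a difference of -0.50 in mean log2 values (two-sided exact permutation test, p = 0.3, with 0.1 the smallest possible). Leaving out 1 library moved it between -0.75, without IE replicate 2, and -0.35, without RE replicate 3.

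TraesCS4A01G016400, the SUT1 homoeolog on 4A, was expressed at 87.8, 125.4 and 85.5 FPKM in IE and at 136.9, 129.7 and 176.2 FPKM in RE. It was the only one of the 9 genes whose libraries did not overlap between the regions, by a small margin between IE replicate 2 and RE replicate 2. Of all genes tested, 11.9% had their IE libraries all below their RE libraries and 4.35% had them all above, and 1 and 0 of these 9 genes did so, a share near that of the table. The log2 fold change was -0.58 (standard error 0.24, 95% interval -1.14 to -0.01, limma adjusted p = 0.489).

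TraesCS4B01G287800, on 4B, had 35.9, 64.0 and 30.6 FPKM in IE and 64.6, 61.5 and 94.2 FPKM in RE. IE replicate 2 matched the lower RE libraries while the other IE libraries lay near the bottom of the range. The log2 fold change was -0.80 (standard error 0.32, 95% interval -1.55 to -0.06, limma adjusted p = 0.471). TraesCS4D01G286500, on 4D, had 55.2, 104.7 and 56.6 FPKM in IE and 64.3, 75.0 and 95.2 FPKM in RE. Its highest library of all was IE replicate 2. Its log2 fold change of -0.16 (standard error 0.30, 95% interval -0.87 to 0.54, limma adjusted p = 0.888) was the nearest to 0 of the triad and close to the median of all genes. Without IE replicate 2, the values for 4A, 4B and 4D were -0.75, -1.12 and -0.47, with limma adjusted p-values of 0.116, 0.0727 and 0.312. Leaving out IE replicate 3 gave -0.48, -0.59 and -0.02 in the same order (limma adjusted p-values of 0.766, 0.757 and 0.995).

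Without IE replicate 2, a setting chosen after seeing the data, 6 of the 9 genes did not overlap between the regions, against 1 with all libraries. These were the 3 SUS1 homoeologs, higher in IE, and the 3 SUT1 homoeologs, lower in IE. Where these genes overlapped with all libraries, IE replicate 2 was the only IE library involved, so this separation follows from leaving it out. The count was not taken with any other library left out. The same separation was then shown by 9.15% of all genes tested as higher in IE and by 27.1% as lower in IE, so on this count a lower value in IE was common in the table and a higher one was less so. As TPM, the SUT1 genes on 4A and 4B were lower in IE without overlap and none of the 9 genes was higher, and 13.8% and 3.66% of all genes tested were so. After median-ratio scaling 1 gene was lower and 0 were higher, and the share over all genes was not taken. The log2 fold changes of SUT1 on 4A, 4B and 4D were then -0.45, -0.68 and -0.04. The SUT1 sum then differed by -0.38 in mean log2 values.

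**Figure D2:**
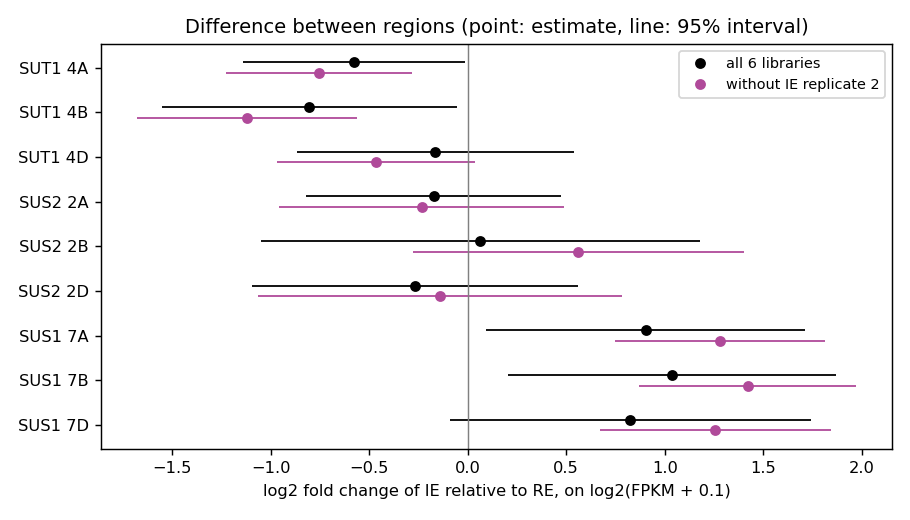
Log2 fold change of IE relative to RE (horizontal axis) for the 9 homoeologs, with points for limma estimates and lines for 95% intervals, from all 6 libraries and without IE replicate 2. The SUT1 points lie between -0.80 and -0.16 with all libraries and the SUS1 points between 0.82 and 1.04.

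SUS2 was a minor sucrose synthase transcript in both regions and did not separate them. Its summed FPKM was 15.4, 11.2 and 15.7 in IE replicates 1, 2 and 3 and 16.8, 19.1 and 9.72 in RE replicates 1, 2 and 3. The RE libraries spanned the values of all IE libraries. The means were 14.1 ± 2.53 in IE and 15.2 ± 4.89 in RE (SD, n = 3 each), a difference of -0.07 in mean log2 values (two-sided exact permutation test, p = 0.8).

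TraesCS2A01G168200 on 2A, the SUS2 homoeolog with the highest mean, had 7.14, 6.98 and 5.25 FPKM in IE and 7.18, 9.98 and 5.24 FPKM in RE. Its log2 fold change was -0.17 (95% interval -0.82 to 0.47, limma adjusted p = 0.872). The gene on 2B, TraesCS2B01G194200, varied most of the triad, with 5.86, 2.37 and 8.04 FPKM in IE and 6.61, 5.07 and 2.93 FPKM in RE. It was low in IE replicate 2 and in RE replicate 3 and high in IE replicate 3, and the 95% interval of its log2 fold change of 0.06 ran from -1.05 to 1.18 (limma adjusted p = 0.976). TraesCS2D01G175600 on 2D was the weakest of the 9 genes, at 2.40, 1.84 and 2.44 FPKM in IE and 3.03, 4.05 and 1.55 FPKM in RE, from 81 to 192 fragments. Its log2 fold change was -0.27 (95% interval -1.09 to 0.56, limma adjusted p = 0.837). The interval of 2B includes a log2 change of 1 in either direction, and that of 2D a change of -1.

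Within a library, ratios between the triads do not depend on how the library was scaled. The summed FPKM of SUS2 was 0.0447, 0.0633 and 0.0327 times that of SUS1 in IE replicates 1, 2 and 3 and 0.0841, 0.127 and 0.0684 times in RE replicates 1, 2 and 3. Every IE library was below every RE library, IE replicate 2 included. The difference in the mean log2 ratio was -0.99 (p = 0.1 by a two-sided exact permutation test, again the smallest value possible), and SUS1 is the larger and more variable term in it. The gap was narrow, from -3.98 in IE replicate 2 to -3.87 in RE replicate 3, against SDs of 0.48 in IE and 0.46 in RE. How often ratios of other genes separate the regions was not tested.

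The ratio of SUT1 to SUS1 was 0.519, 1.66 and 0.359 in IE and 1.33, 1.77 and 2.57 in RE. SUS1 thus exceeded SUT1 per length in IE replicates 1 and 3, and SUT1 exceeded SUS1 in the other 4 libraries. The difference in the mean log2 ratio was -1.43 (two-sided exact permutation test, p = 0.2), and it was -2.08 without IE replicate 2 and -0.97 without IE replicate 3. The ratio of SUT1 to SUS2 did not separate the regions, at 11.6, 26.3 and 11.0 in IE and 15.8, 13.9 and 37.6 in RE (two-sided exact permutation test, p = 0.5). These 3 ratios were all that were compared, and none can pass a threshold of 0.05 with 3 libraries against 3.

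**Figure D3:**
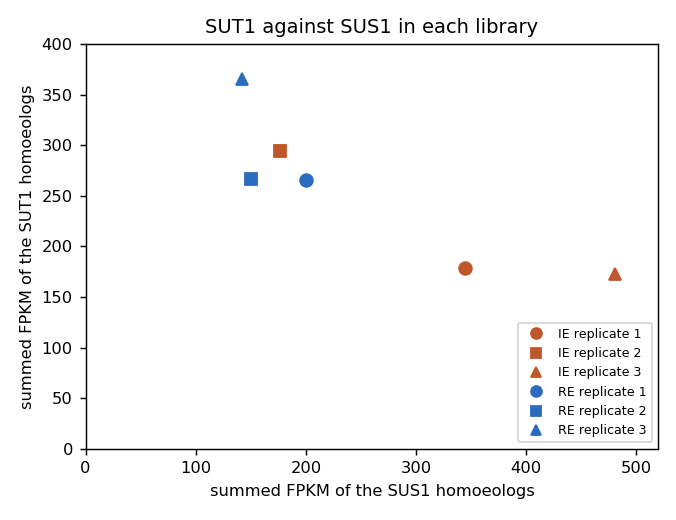
Summed FPKM of the SUT1 homoeologs (vertical axis) against that of the SUS1 homoeologs (horizontal axis), 1 point per library, both axes starting at 0. IE replicates 1 and 3 lie at 344.6 and 480.5 FPKM of SUS1 with 178.9 and 172.6 FPKM of SUT1, apart from the other 4 libraries.

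**Figure D4:**
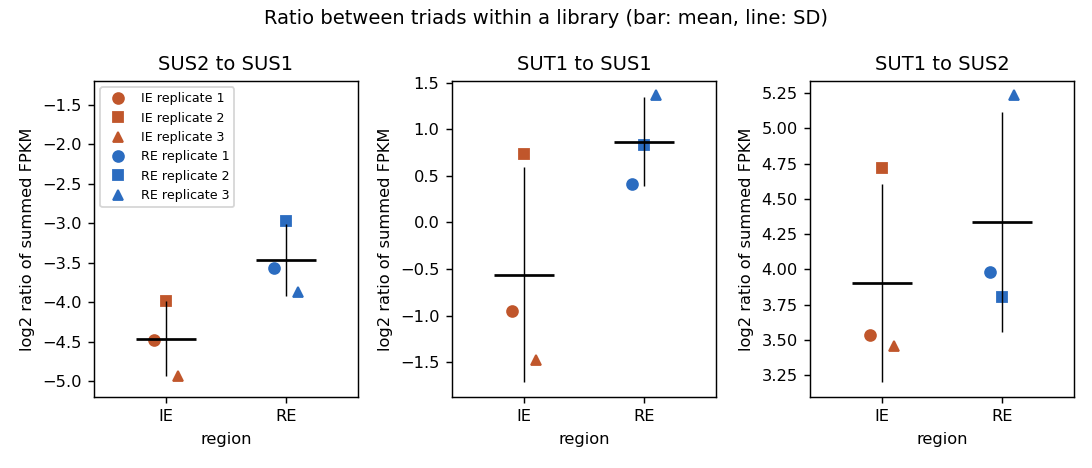
Log2 ratios of summed FPKM between triads (vertical axes, with a range of their own in each panel) in the IE and RE libraries, with bars for means and vertical lines for SDs. SUS2 to SUS1 does not overlap between the regions, by a narrow gap, with -3.98 as the highest IE value and -3.87 as the lowest RE value. The other 2 ratios overlap.

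The shares of the homoeologs in a triad differed between the regions without overlap for 2 of the SUT1 genes and 2 of the SUS1 genes. In SUT1, the 4D gene took 30.8%, 35.6% and 32.8% of the summed FPKM in IE replicates 1, 2 and 3 and 24.2%, 28.2% and 26.0% in RE replicates 1, 2 and 3. All IE libraries were above all RE libraries, including IE replicate 2, which had the largest share. The mean share was 33.1 ± 2.38% in IE and 26.1 ± 1.99% in RE (SD, n = 3 each), 6.93 percentage points apart (p = 0.1, two-sided exact permutation test, also the lowest value possible). Counting error was smaller than this gap. In fragments, the lowest IE share was 30.9% (95% Wilson interval 29.6 to 32.2) and the highest RE share was 28.2% (27.2 to 29.2), and such intervals cover counting error only.

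The share of the 4B gene was instead lower in IE, with 20.1%, 21.8% and 17.7% of SUT1 in IE and 24.3%, 23.1% and 25.8% in RE. Again the regions did not overlap (-4.55 percentage points, two-sided exact permutation test, p = 0.1). The 4A gene held the largest share in every library, from 42.7% in IE replicate 2 to 51.5% in RE replicate 1, and its libraries overlapped (-2.38 percentage points, two-sided exact permutation test, p = 0.6). As a ratio, 4B ranged from 0.541 to 0.650 times 4D in the IE libraries, and from 0.819 to 1.00 times 4D in the RE libraries.

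In SUS1, the differences in share were smaller. The 7B gene took 41.1%, 41.8% and 39.2% of the triad in IE and 37.9%, 38.5% and 36.5% in RE, with no overlap (3.09 percentage points, two-sided exact permutation test, p = 0.1). The 7D gene took 38.9%, 37.3% and 40.9% in IE and 42.3%, 41.3% and 41.9% in RE, with no overlap either (-2.80 percentage points, two-sided exact permutation test, p = 0.1). The gap was narrow here, since the counting interval of 7B in IE replicate 3 (95% Wilson interval 38.7 to 40.2% of fragments) overlapped that in RE replicate 2 (37.6 to 39.9%). For 7D, the intervals in the same libraries overlapped too (40.3 to 41.8% and 40.4 to 42.7%). The 7A gene held between 19.8% and 21.7% in every library and did not differ between regions beyond its spread (two-sided exact permutation test, p = 0.7).

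The SUS2 shares overlapped for all 3 homoeologs and varied widely within IE. The 2A gene took 46.3%, 62.3% and 33.4% of the triad in IE replicates 1, 2 and 3 and between 42.7% and 53.9% in RE, and the 2B gene took 38.1%, 21.2% and 51.1% in IE and between 26.5% and 39.3% in RE. The 2D gene was the smallest part in every library, from 15.5% to 21.2%. Of the 9 shares compared, 4 did not overlap between the regions, and the members of 1 triad are not independent in this, because their shares add up to 100%. How often the shares of other triads separate the regions was not tested, since no table of homoeologs was at hand. Reads that match more than 1 homoeolog could be divided between them, and the counting tool is not given in the sources used here, so shares carry this uncertainty, and sums do too where shared reads were dropped or counted more than once.

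**Figure D5:**
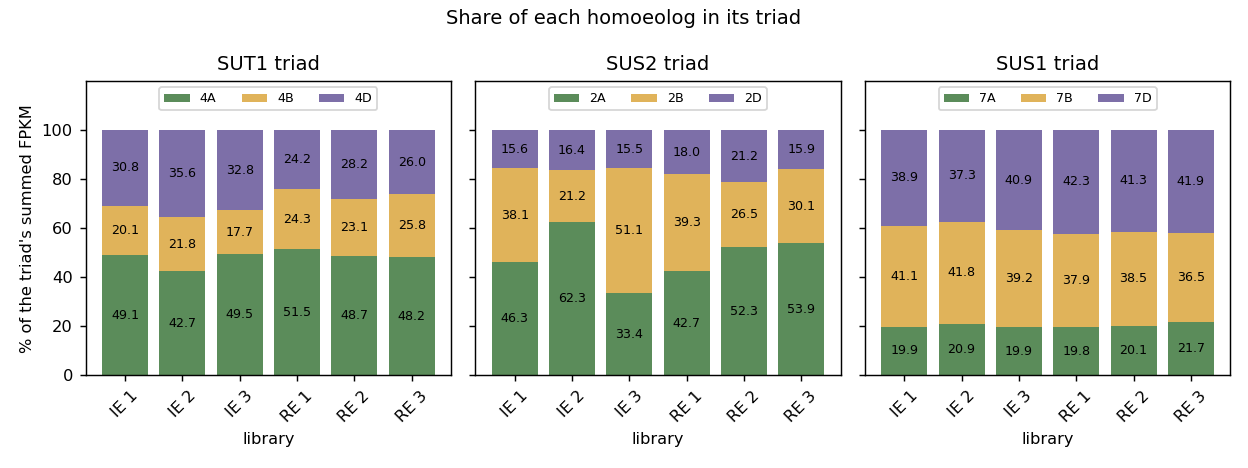
Share of each homoeolog in the summed FPKM of its triad (vertical axis, percent, with the value printed in each segment) in the 6 libraries (horizontal axis). The 4D segment of SUT1 is between 30.8% and 35.6% in IE and between 24.2% and 28.2% in RE, and the 7A segment of SUS1 stays between 19.8% and 21.7%.

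The order of the 9 genes by mean FPKM differed between the regions in its upper part. In IE, the SUS1 genes on 7B (134.7 ± 57.7) and 7D (132.2 ± 65.3) led, followed by SUT1 on 4A (99.6 ± 22.4) and 4D (72.1 ± 28.2), SUS1 on 7A (67.1 ± 29.3) and SUT1 on 4B (43.5 ± 18.0; SD, n = 3 each). None of these 6 had all its libraries above all those of the next gene except 4B, which stood above SUS2 on 2A, but within each library 4A was above 4D. In RE, SUT1 on 4A led at 147.6 ± 25.0 FPKM (SD, n = 3), above every library of the next gene, SUT1 on 4D at 78.2 ± 15.7. SUT1 on 4B (73.4 ± 18.1) and SUS1 on 7D (68.7 ± 13.8) and 7B (61.8 ± 12.5) followed with overlapping libraries, although 7D was above 7B within each library. SUS1 on 7A (33.6 ± 5.33) lay below all libraries of these genes. The SUS2 genes were last in both regions, in the order 2A, 2B and 2D.

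The spread between replicates was far above counting error for SUT1 and SUS1. In IE, the coefficient of variation ran from 22.5% to 49.4% for these 6 genes and in RE from 15.9% to 24.6%, whereas counting alone gives at most 3.86% at their lowest fragment number. For SUS2, counting alone gives up to 11.1%, against 15.1% to 52.7% in the regions. The wide spread of SUS1 in IE, a range of 176.8 to 480.5 FPKM in the sum, came with IE replicate 2 at the bottom and IE replicate 3, the library of lowest total, at the top.

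Genes with the nearest identifiers on the chromosome, which are numbered along it, were read in the same way. Of the 10 identifiers nearest to each of the 9 genes, between 4 and 6 passed the level for the test. The log2 fold changes of these neighbours reached at most 0.54, 0.69 and 0.61 around the SUS1 genes on 7A, 7B and 7D, each below the value of the SUS1 gene itself. Around SUT1 on 4A and 4B they reached down to -0.06 and -0.31, each above the SUT1 gene, while on 4D they ran from -0.36 to 1.37 and included it. The SUS2 genes also lay within the range of their neighbours, which was -0.54 to 0.26 for 2A, -0.49 to 1.17 for 2B and -0.80 to 0.49 for 2D. Of all genes tested, 95.7%, 96.7% and 94.9% had a lower log2 fold change than SUS1 on 7A, 7B and 7D. For SUT1 on 4A and 4B the shares were 14.7% and 8.73%. Most genes of the table thus lay on the same side as the neighbours, so the comparison does not set these loci apart.

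Among 7191 other genes whose mean reached 10 FPKM, the gene with the pattern most like the SUT1 sum over the 6 libraries was TraesCS5D01G256200, by the root mean square difference of centred log2 values (0.06, with a median of 0.45 over these genes). It was expressed at 17.6, 26.1 and 15.2 FPKM in IE and at 25.1, 23.9 and 33.9 FPKM in RE. Nearest to the SUS1 sum was TraesCS3B01G258100 (0.11, median 0.78), with 55.4, 34.2 and 75.1 FPKM in IE and 37.6, 25.9 and 24.1 FPKM in RE. Nearest to the SUS2 sum was TraesCS5A01G359700 (0.09, median 0.47), which the paper annotates as a serine protease inhibitor, with 121.2, 77.1 and 120.4 FPKM in IE and 136.2, 129.9 and 72.9 FPKM in RE. With 6 libraries and this many genes, a close likeness of some gene is a description only.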

How the data were processed

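Endosperm RNA of 3 IE and 3 RE libraries was sequenced. After filters on read quality (Illumina software, then fastp), the authors aligned reads to the genome of Chinese Spring with HISAT2 (versions not given in the sources used here) and deposited 1 table of FPKM. Neither the tool for counting nor its handling of strand and shared reads is given in the sources used here. FPKM leaves a shift in composition between libraries uncorrected, and genes that share reads with a homoeolog can gain or lose fragments.

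Whole fragments, gene lengths and library totals were recovered from the steps of the FPKM values. Whole fragments, to within 0.01 of a fragment, were found for 100% of 86042 genes with a value, and their sums came to 99.4% to 99.5% of the library totals. A whole factor of the totals was set from these sums, so the sums are no independent check. The recovery was tested on simulated data, where 6 of 6 totals came back exactly. Fragments served for depth and alternatives only.

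For single genes, limma 3.58.1 (R 4.3.3) was fitted to log2(FPKM + 0.1) with a variance trend for all genes whose mean reached 0.5 FPKM, and p-values were adjusted over all of these by the Benjamini-Hochberg method. The fit was run on simulated data with large known changes. How small a change could be called with these libraries was not tested. Triad sums, shares and ratios were compared by two-sided exact permutation tests over the 20 divisions of the libraries, in Python 3.11.15 with scipy 1.17.1. No limma p was adjusted over the 9 genes alone. Permutation p-values in the text are unadjusted. By the Benjamini-Hochberg method over the 9 shares, those of 4B, 4D, 7B and 7D became 0.225. Over the 3 ratios, that of SUS2 to SUS1 became 0.3. The alternatives changed the pseudocount (1 and 0.01), the filter (none, or 5 FPKM), the scaling (TPM, median ratio), the variance trend, the kind of p, the replicate block and the values (limma's voom on fragments), or left out a library. The count of genes whose regions do not overlap was also taken without IE replicate 2, as TPM and after median-ratio scaling, which were chosen after seeing the data.

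All 9 genes are named, with the gene most like each triad. The genes and tests were chosen with earlier results of these data known. No list of other genes of the sucrose pathway is given, since no table at hand annotates the identifiers, and no sequences are shown for the same reason.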

Additional observations from a re-analysis of the deposited data

How the results depend on the processing

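With the adjusted p, 0 genes were called in every fit, with all 6 libraries or 5, with limma's voom on fragments and with the replicate block. With the unadjusted p in its place 2980 genes passed, and 5161 without IE replicate 2, where 9232 genes had an unadjusted p under 0.05 against 5203 with all libraries. The replicate numbers did not pair the libraries (correlations of deviations of 0.11, 0.06 and -0.20 for replicates 1, 2 and 3), and the replicate block called none of the 9 genes. The signs of the 6 SUT1 and SUS1 genes and of their sums held under every alternative, with log2 fold changes over left-out libraries of -0.75 to -0.44 (4A), -1.12 to -0.59 (4B), -0.47 to -0.0042 (4D), 0.60 to 1.28 (7A), 0.74 to 1.42 (7B), 0.47 to 1.26 (7D), 0.61 to 1.33 (SUS1 sum) and -0.75 to -0.35 (SUT1 sum). For 4D only the sign held, since its value was -0.0042 without IE replicate 1 and -0.04 after median-ratio scaling. SUS2 had no stable direction. Leaving out each library gave -0.40 to 0.059 for 2A, -0.30 to 0.56 for 2B, -0.64 to 0.022 for 2D and -0.36 to 0.12 for the sum, which was 0.059 after median-ratio scaling. In the same way, the difference in share ran from -9.75 to 4.72 points for 2A, from -2.34 to 12.6 for 2B and from -0.64 to 0.26 for 7A, and the log2 ratio of SUT1 to SUS2 from -0.84 to 0.012. The other 6 shares kept their direction (4B -5.51 to -3.49 points, 4D 5.67 to 8.04, 7B 2.52 to 3.83, 7D -3.72 to -1.92), as did the log2 ratios of SUS2 to SUS1 (-1.24 to -0.74) and of SUT1 to SUS1 (-2.08 to -0.97). Without IE replicate 2, the only library left out for this count, 3 genes were higher and 3 lower in IE with no overlap (9.15% and 27.1% of all genes). As TPM 2 were lower (13.8% of all genes), and after median-ratio scaling 1 was. The cause was not tested. Values of 2D rest on as few as 81 fragments, and 2D has no value with the filter at 5 FPKM.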
